A study of Mus musculus with 6 samples.

Results

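Collagens are secreted matrix proteins whose chains wind into triple helices, and the genes of the family carry symbols made of Col, a type number, the letter a and a chain number. The set was drawn by that pattern of symbol, using only probe sets that name a single symbol, and held 42 of the 18193 genes that the arrays measured under 1 symbol. Each gene was read from its brightest probe set. Brown adipose tissue (BAT), the fat depot that burns fuel for heat, was taken from 3 KRAP-/- mice (KO) and their 3 wild-type littermates (WT), all 32 weeks old and kept on normal chow. In the KO line a neomycin resistance cassette replaces exons 11 to 16 of KRAP, now named Itprid2, in every cell of the body. The labels number the arrays within each group and do not name litters. The study's methods describe 3 pairs of littermates and compare KO1 with WT1, KO2 with WT2 and KO3 with WT3, and these were taken as the litter pairs. The sex of the mice was not given in the sources used here. Mice of the KRAP-/- line were kept on the C57BL6/J background after repeated backcrossing.

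Fibrillar collagens such as types I, III and V form the cable-like fibrils of connective tissue, and fibroblasts and adipose progenitors are known as their main makers in fat. Type IV builds the sheet-like network of basement membranes around adipocytes and vessels, and type VI forms beaded microfilaments around fat cells. FACITs, which are fibril-associated collagens such as type XIV, sit on the surface of fibrils, while multiplexins such as types XV and XVIII lie in or beside basement membranes.

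Signals are given as multiples of the median signal of the same array, with the 6 array medians between 16.5 and 20.4 deposited units. KRAP itself read 47.0, 35.1 and 41.4 in KO1 to KO3 against 55.3, 56.6 and 42.2 in WT1 to WT3, a log2 difference of -0.32 (95% interval -0.83 to 0.20, adjusted p = 0.720), and where its probes lie relative to the deleted exons was not tested. WT2 stood apart in RNA quality measures. Its ratio of 3′ to 5′ actin signal was 3.80 against 1.91 to 2.58 on the other arrays, and its 18S ribosomal RNA signal was 732.9 against 35.3 to 77.8. Summed markers of brown adipocytes lay between 1802 and 2408 in KO and between 1813 and 2365 in WT, with all 7 measured. Skeletal muscle markers, 6 of 6 measured, ranged from 16.8 to 570.5 in KO and from 53.0 to 223.9 in WT, a wide spread within both groups whose part in the collagen values was not tested. Macrophage markers, 5 of 5 measured, summed to 83.5 to 95.2 in KO and 72.4 to 98.8 in WT. The sum hides single markers that differed. Cd163 had a log2 difference of 1.29 (adjusted p = 0.396), with every KO array above every WT array. Cd68 differed by -0.39 (adjusted p = 0.663), Csf1r by 0.20, Lyz2 by -0.029 and Adgre1 by -0.020, and none passed the test.

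The sequences just upstream of a few collagen genes are shown to give the regulatory context of the probe signals below. They come from a table of RefSeq promoters on mouse build GRCm38.p6, in which 21 of the 25 collagen genes with a signal high enough to test were matched. The other 4 were Col1a1, Col5a2, Col12a1 and Col14a1. Windows run 5′ to 3′ on the strand of the gene and end at the base before its annotated start, except that of Col5a3, which holds 200 bases and leaves out the 50 next to the start, which lie inside the annotated bounds of the gene. Capitals mark matches to 4 motifs on either strand. They are the CCAAT box (read as ATTGG on the other strand), the GC box GGGCGG (read as CCGCCC), the TATA box TATAAA (read as TTTATA) and the Smad-binding letters CAGAC (read as GTCTG). Col1a2 (chr6:4505368-4505617, plus strand) and Col3a1 (chr1:45311288-45311537, plus strand) are shown because types I and III are the major fibrillar collagens, Col5a3 (chr9:20815118-20815317, minus strand) and Col8a1 (chr16:57754738-57754987, minus strand) because they read lower in all 3 KO animals than in their littermates.
Col1a2: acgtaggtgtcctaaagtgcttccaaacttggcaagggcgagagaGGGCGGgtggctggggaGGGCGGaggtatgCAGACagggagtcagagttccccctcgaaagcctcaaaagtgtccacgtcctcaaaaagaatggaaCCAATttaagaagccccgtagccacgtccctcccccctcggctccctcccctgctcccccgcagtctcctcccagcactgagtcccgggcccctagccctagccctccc
Col3a1: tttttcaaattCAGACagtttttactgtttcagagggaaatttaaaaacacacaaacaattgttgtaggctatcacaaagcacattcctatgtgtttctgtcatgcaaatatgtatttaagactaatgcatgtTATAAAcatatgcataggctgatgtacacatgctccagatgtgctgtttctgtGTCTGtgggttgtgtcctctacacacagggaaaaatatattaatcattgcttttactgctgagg
Col5a3: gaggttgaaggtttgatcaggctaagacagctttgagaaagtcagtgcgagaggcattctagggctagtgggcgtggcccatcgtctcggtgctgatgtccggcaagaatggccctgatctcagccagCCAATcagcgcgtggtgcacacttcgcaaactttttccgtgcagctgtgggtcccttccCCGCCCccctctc
Col8a1: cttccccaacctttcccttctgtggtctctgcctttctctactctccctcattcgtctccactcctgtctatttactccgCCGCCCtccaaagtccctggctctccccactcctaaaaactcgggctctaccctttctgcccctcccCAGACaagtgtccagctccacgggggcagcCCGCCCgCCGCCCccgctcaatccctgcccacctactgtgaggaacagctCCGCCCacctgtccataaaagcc

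The Col1a2 window held 2 GC boxes, 1 CCAAT box beginning 109 bases before the annotated start, and 1 CAGAC. The AT-rich Col3a1 window held no GC box, a TATAAA beginning 117 bases before the start and 2 matches to CAGAC or its complement. Col5a3 held 1 CCAAT box and 1 GC box, and Col8a1 held 4 GC boxes and 1 CAGAC. Over windows of 300 bases, 250 before and 50 after the start, the GC box was found in 15 of the 23 windows listed for the 21 collagen genes (65.2%) and in 35.7% of all 32851 windows. CAGAC was found in 13 of the 23 (56.5%) against 49.6% of all windows, CCAAT in 7 (30.4%) against 37.4%, and TATAAA in 3 (13%) against 13.6%. These matches describe letters in the windows and say nothing of binding.

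Of the 42 collagen genes, 25 had a mean signal above 1 array median and were tested, and every array of all 25 lay above the floor of 0.25 array medians set on low values. None of the 25 passed an adjusted p of 0.05 in the limma fit over 22356 probe sets, in which 0% of the probe sets and 0% of the 11140 tested genes passed, and 8.55% of the probe sets had an unadjusted p under 0.05. Col14a1, a FACIT, had the largest difference, 2.04-fold higher in KO by the fit. At an unadjusted p under 0.05, 2 collagen genes were higher in KO, Col14a1 and Col1a1, against 3.22% of all tested genes, and 1 was lower, Col8a1, against 4.98%. Col14a1 was also the 1 collagen gene at least 1.5-fold higher in every pair, beside 0.601% of all tested genes, and 0 were at least 1.5-fold lower in every pair, beside 0.862%.

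The direction was mixed across the family. KO was above WT in all 3 pairs for 7 of the 25 collagen genes (28%), where 10.9% of all tested genes were, and below WT in all 3 pairs for 6 (24%), where 19.7% were. Every KO array exceeded every WT array for 4 collagen genes, Col14a1, Col1a1, Col1a2 and Col6a1, beside 4.43% of all tested genes. Every KO array lay below every WT array for the same number, Col27a1, Col5a3, Col18a1 and Col6a2, beside 7.87%. All these counts used the brightest probe sets, and the groups overlapped in the other tested probe sets of Col1a1, Col1a2 and Col6a2. The log2 differences ran from -0.61 to 1.03 with a median of 0.06, against -0.07 over all tested genes. Of the 25, 16 lay within 0.3 of 0, beside 7977 of all 11140 tested genes. In bulk tissue a smaller number of matrix-making cells and less RNA per cell cannot be told apart.

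**Figure D1:**
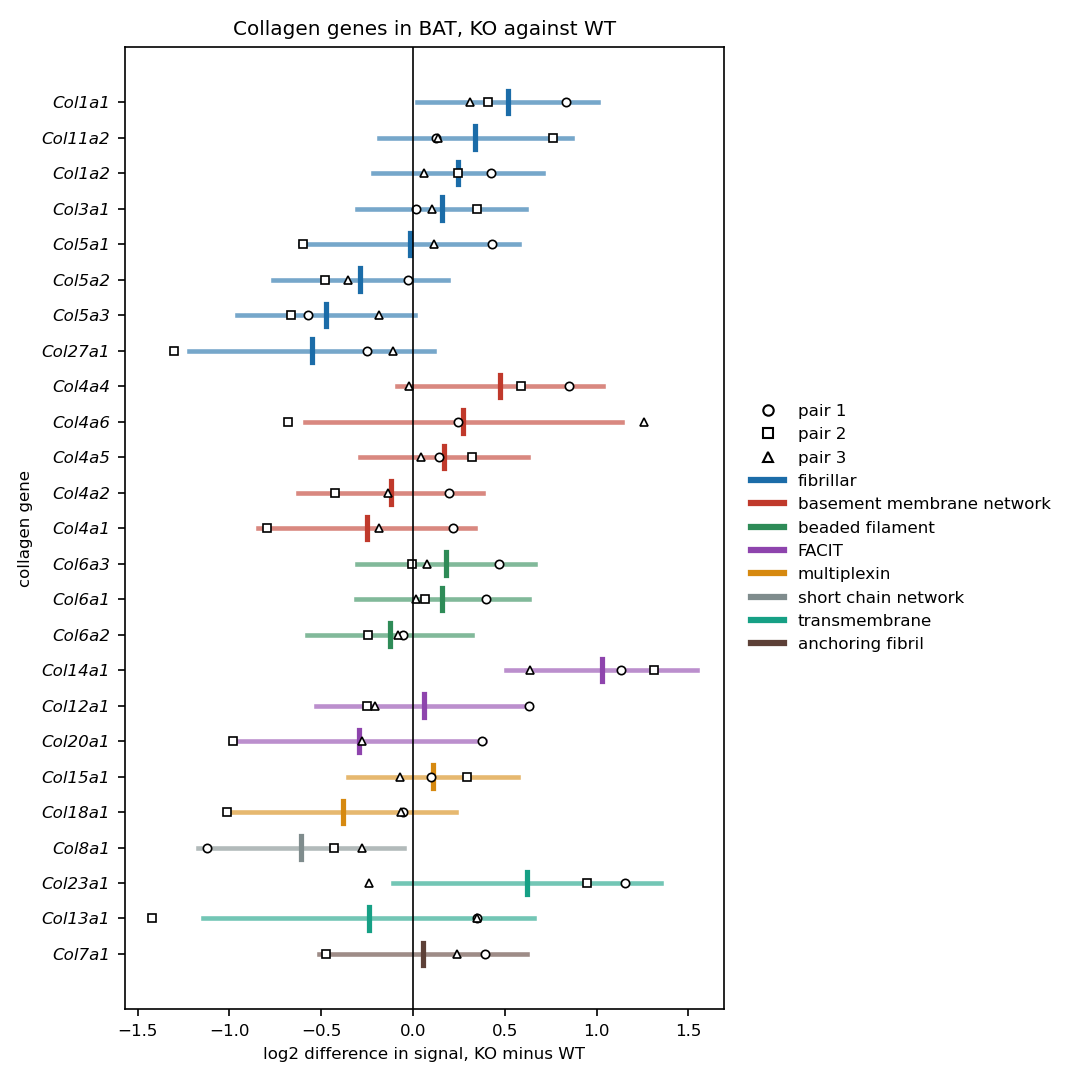
Log2 difference in signal (KO minus WT, horizontal axis) of the 25 tested collagen genes, grouped by assembly class. Thick ticks are the fitted differences, coloured bars their 95% intervals and open symbols the 3 littermate pairs. Col14a1 at 1.03 lies farthest to the right and Col8a1 at -0.61 farthest to the left.

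The littermate pairs gave different pictures of the family. In pair 1, 19 collagen genes were higher in KO and 6 lower, with a median log2 difference of 0.25 against -0.03 over all tested genes. In pair 2 the split was 10 to 15, with a median of -0.25 against -0.24 over all tested genes. In pair 3 it was 12 to 13, with medians of -0.02 and 0.06. KO1 was the highest of the 6 arrays for 13 of the 25 collagen genes and WT2 for 9, so these arrays together held the top value for most of the family.

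**Figure D2:**
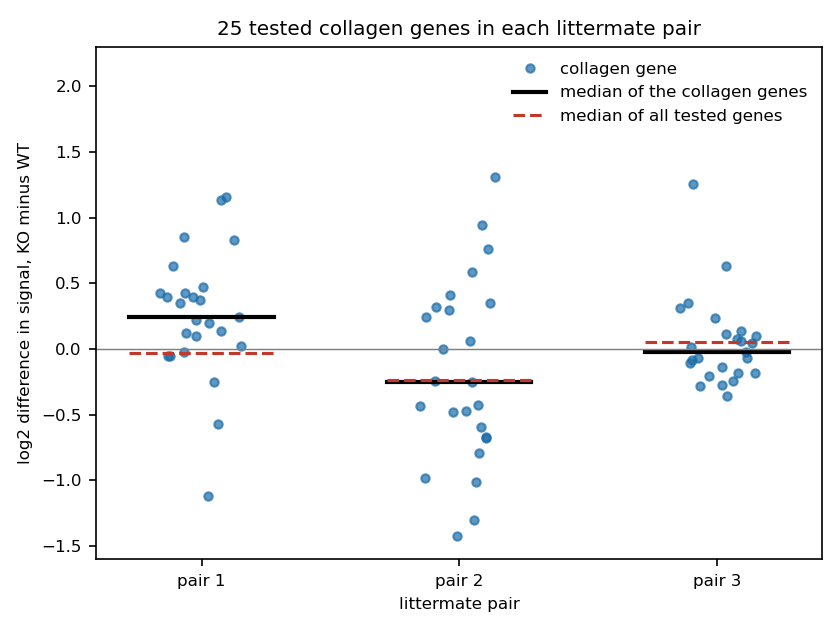
Log2 difference in signal (KO minus WT, vertical axis) of the 25 tested collagen genes in each littermate pair, 1 point a gene, with small horizontal offsets for legibility. Solid lines are the medians of the collagen genes (0.25, -0.25 and -0.02) and dashed lines those of all tested genes.

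Among the fibrillar collagens, read from their brightest probe sets, the chains of types I and III were higher in KO in all 3 pairs. By the same reading 3 others, Col5a2, Col5a3 and Col27a1, were lower in all 3 pairs, and no chain passed the test. Other probe sets of Col1a2, Col3a1 and Col5a2 did not keep these directions in every pair. Of the 8 tested fibrillar genes 4 were higher in every pair and 3 lower, beside 10.9% and 19.7% of all tested genes, with a class median of 0.07. Col1a1, which encodes the alpha 1 chain of type I, read 11.4, 6.57 and 7.87 in KO1 to KO3 and 6.41, 4.95 and 6.35 in WT1 to WT3. In this probe set, the brightest, all KO values lay above all WT values, with KO2 close to WT1. The means were 8.61 ± 2.5 and 5.90 ± 0.827 (SD, n = 3 each), with a fitted difference of 1.43-fold (log2 0.52, 95% interval 0.02 to 1.01, adjusted p = 0.569). Its partner chain Col1a2 read 33.6, 29.95 and 26.6 in KO and 25, 25.2 and 25.4 in WT. The WT arrays were nearly level and KO3 lay just above them, for a log2 difference of 0.24 (-0.22 to 0.71, adjusted p = 0.772). Col3a1, the chain of type III in reticular fibres, read 83.8, 83.8 and 70.4 in KO and 82.7, 65.9 and 65.6 in WT. The groups overlapped, since WT1 was almost as high as KO1 and KO2, and the log2 difference was 0.16 (-0.31 to 0.62, adjusted p = 0.871). It was 0.061 without pair 2, while that of Col1a2 was 0.15 without pair 1.

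Of the type V chains, which join type I fibrils and limit their width, Col5a2 and Col5a3 were lower in KO in every pair by their brightest probe sets and Col5a1 was not. Col5a1 read 8.51, 5.6 and 8.0 in KO and 6.32, 8.47 and 7.40 in WT, with KO higher in pairs 1 and 3 and lower in pair 2 and a log2 difference of -0.019 (-0.62 to 0.58, adjusted p = 0.993). Col5a2 read 11.1, 9.48 and 7.47 in KO and 11.3, 13.2 and 9.55 in WT. Its groups overlapped, and the difference was -0.29 (-0.76 to 0.19, adjusted p = 0.733), or -0.19 without pair 2. Col5a3, a less widely made type V chain, read 4.97, 7.25 and 6.66 in KO and 7.38, 11.5 and 7.56 in WT. Every KO array was below every WT array by a narrow gap between KO2 and WT1, and the fitted difference was 1.39-fold lower in KO (log2 -0.47, -0.96 to 0.01, adjusted p = 0.598).

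Col27a1, a fibrillar collagen known mainly from cartilage, read 20.9, 18.4 and 21.3 in KO and 24.9, 45.2 and 23.0 in WT. KO values were all below WT values, and WT2 stood far above the other WT arrays. The log2 difference was -0.55 (-1.22 to 0.11, adjusted p = 0.644) and became -0.18 without pair 2, and the part of WT2's RNA quality in it was not tested. The 5 cartilage markers were all too dim to test, with sums of 1.69 to 2.47 in KO and 2.17 to 2.80 in WT. Col11a2, a minor chain of cartilage fibrils, read 1.65, 1.27 and 1.06 in KO and 1.52, 0.749 and 0.964 in WT, with overlapping groups and a difference of 0.34 (-0.18 to 0.87, adjusted p = 0.712) that was 0.13 without pair 2.

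Col14a1, whose type XIV protein decorates the surface of type I fibrils, read 9.99, 7.71 and 5.02 in KO1 to KO3 and 4.55, 3.11 and 3.23 in WT1 to WT3. Every KO array was above every WT array, and KO was 2.2-, 2.48- and 1.55-fold higher in pairs 1 to 3. The means were 7.57 ± 2.49 and 3.63 ± 0.798 (SD, n = 3 each), and the log2 difference was 1.03 (SE 0.22, 95% interval 0.51 to 1.55), with an adjusted p of 0.399. It passed under 2 other settings, at an adjusted p of 0.0499 with a pseudocount of 1 array median in place of the floor and of 0.00835 with an intensity trend and robust prior, within a range of 0.00835 to 0.788 over all settings tried. Its second probe set gave 1.33 (adjusted p = 0.396), with ratios of 3.54, 1.94 and 2.33 in the 3 pairs. That probe set was dim, with a mean of 0.925 in WT and 2.28 in KO. It passed the filter at a mean of 1 only through the KO arrays, so it is weak backing for the first. Of the other tested FACITs, Col12a1, a relative of type XIV on fibrils, differed by 0.06 (adjusted p = 0.969). Col20a1 read 1.92, 0.858 and 0.833 in KO and 1.48, 1.69 and 1.01 in WT, overlapping, with a difference of -0.29 (adjusted p = 0.825).

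Markers of fibroblasts and adipose progenitors, the cells known to make fibrillar collagens, summed to 85.1 to 91.2 in KO and 69.4 to 105.7 in WT over the 7 of 8 that were measured. Their median log2 difference was 0.13, and the KO range lay inside the WT range. Pi16, which marks a progenitor population of vessel sheaths, read 11.2, 9.26 and 8.63 in KO and 5.26, 7.18 and 5.03 in WT (log2 0.74, adjusted p = 0.469), without overlap. Pdgfrb, a receptor of perivascular and stromal cells, ran the other way without overlap, at 14.9, 13.4 and 15.0 in KO and 16, 21.4 and 18.0 in WT (-0.35, adjusted p = 0.694). Cd34 differed by 0.40, Thy1 by 0.31, Pdgfra by 0.13, Fap by 0.055 and Dpt by -0.16, none past the test. Pi16 and Pdgfrb were chosen for mention after their values were seen. The part of progenitor content in the Col14a1 and Col1a1 values was not tested.

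The main basement membrane chains Col4a1 and Col4a2 were both higher in KO in pair 1 and lower in pairs 2 and 3, and neither passed the test. These genes run in opposite directions from 1 spot on chromosome 8. Their RefSeq transcripts overlap at the start by 22 bases (chr8:11312805-11312826, plus strand, GC box in capitals), and the sequence is shown for that shared arrangement.
Col4a1 and Col4a2 starts: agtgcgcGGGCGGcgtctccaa

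Col4a1 read 72.7, 45.5 and 48.2 in KO and 62.5, 78.9 and 54.7 in WT, with WT2 highest, KO2 lowest and the groups overlapping. The log2 difference was -0.25 (-0.84 to 0.34, adjusted p = 0.826) and 0.018 without pair 2. Col4a2 read 56.4, 39.8 and 43.1 in KO and 49.2, 53.5 and 47.3 in WT, with KO1 highest and KO2 lowest. Its difference was -0.12 (-0.63 to 0.38, adjusted p = 0.918), and 0.031 without pair 2. Endothelial markers, 6 of 6 tested, summed to 44.5 to 48.2 in KO and 47.1 to 64.2 in WT with a median of -0.29, and their part in the type IV values was not tested.

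The minor type IV chains, found in more restricted basement membranes, were dimmer. Col4a4 read 1.54, 1.97 and 1.6 in KO and 0.852, 1.31 and 1.62 in WT. WT3 lay within the KO values, and the difference was 0.47 (-0.09 to 1.03, adjusted p = 0.638), with 0.29 without pair 1 and 0.72 without pair 3. Col4a5 was 0.17 higher in KO on the log2 scale (adjusted p = 0.855), or 0.092 without pair 2, and higher in every pair. Its second probe set gave 0.079, with KO lower in pair 2 (-0.11). Col4a6, the neighbour of Col4a5 on the chromosome, was 0.28 higher (adjusted p = 0.883) with ratios of 1.19, 0.625 and 2.39.

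By their brightest probe sets, type VI chains, which assemble together into one microfilament, split by direction with small differences, none of which passed. Col6a1 read 19.9, 18.3 and 18.3 in KO and 15.1, 17.5 and 18.1 in WT, a difference of 0.16 (-0.31 to 0.63, adjusted p = 0.872). Col6a2, its neighbour on the chromosome, read 24.7, 23.8 and 23.5 in KO and 25.7, 28.1 and 24.8 in WT, a difference of -0.13 (-0.58 to 0.32, adjusted p = 0.898). Neither gene's groups overlapped, with KO above WT for Col6a1 and below for Col6a2, but the gaps between the nearest arrays were small. The second tested Col6a2 probe set gave 0.0022, with overlapping groups and KO higher in pair 1 (0.14). Col6a3, the large chain whose cleaved end is the adipokine endotrophin, read 25.9, 20.3 and 19.7 in KO and 18.7, 20.3 and 18.7 in WT. KO1 stood above the rest and the groups overlapped (0.18, -0.30 to 0.66, adjusted p = 0.852). Without pair 1 the differences of Col6a1 and Col6a3 were 0.039 and 0.036, and that of Col6a2 was -0.069 without pair 2.

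The multiplexins showed no common direction. Col15a1 read 5.71, 6.52 and 5.27 in KO and 5.34, 5.31 and 5.52 in WT, with overlapping groups and a difference of 0.11 (-0.36 to 0.57, adjusted p = 0.922) that was 0.015 without pair 2 and 0.20 without pair 3. Col18a1, the precursor of endostatin, read 3.77, 3.44 and 3.65 in KO and 3.92, 6.94 and 3.83 in WT. All KO values were below WT, but by little apart from WT2, and the difference of -0.38 (-0.99 to 0.23, adjusted p = 0.719) was -0.06 without pair 2. A second, dimmer Col18a1 probe set read 2.51, 2.05 and 1.52 in KO and 2.83, 5.63 and 3.56 in WT. In that probe set KO was well below WT in pair 3 as well as in pair 2 (log2 -1.23 and -1.46).

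Col8a1, a short-chain collagen of vessel walls, read 1.66, 3.30 and 2.61 in KO and 3.62, 4.44 and 3.16 in WT. KO was lower in every pair, although KO2 exceeded WT3. The mean was 2.52 ± 0.819 against 3.74 ± 0.647 (SD, n = 3 each), and the fitted difference, on the log2 scale, was 1.53-fold lower in KO (log2 -0.61, -1.17 to -0.05, adjusted p = 0.561), and -0.35 without pair 1. The transmembrane collagen Col23a1 read 2.52, 1.46 and 1.49 in KO and 1.13, 0.755 and 1.77 in WT, with overlapping groups and a difference of 0.62 (-0.11 to 1.35, adjusted p = 0.638) that was 0.35 without pair 1 and 1.05 without pair 3. Col13a1, also transmembrane, differed by -0.24 (adjusted p = 0.905), and Col7a1, the chain of anchoring fibrils under epithelia, by 0.05 (adjusted p = 0.970).

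**Figure D3:**
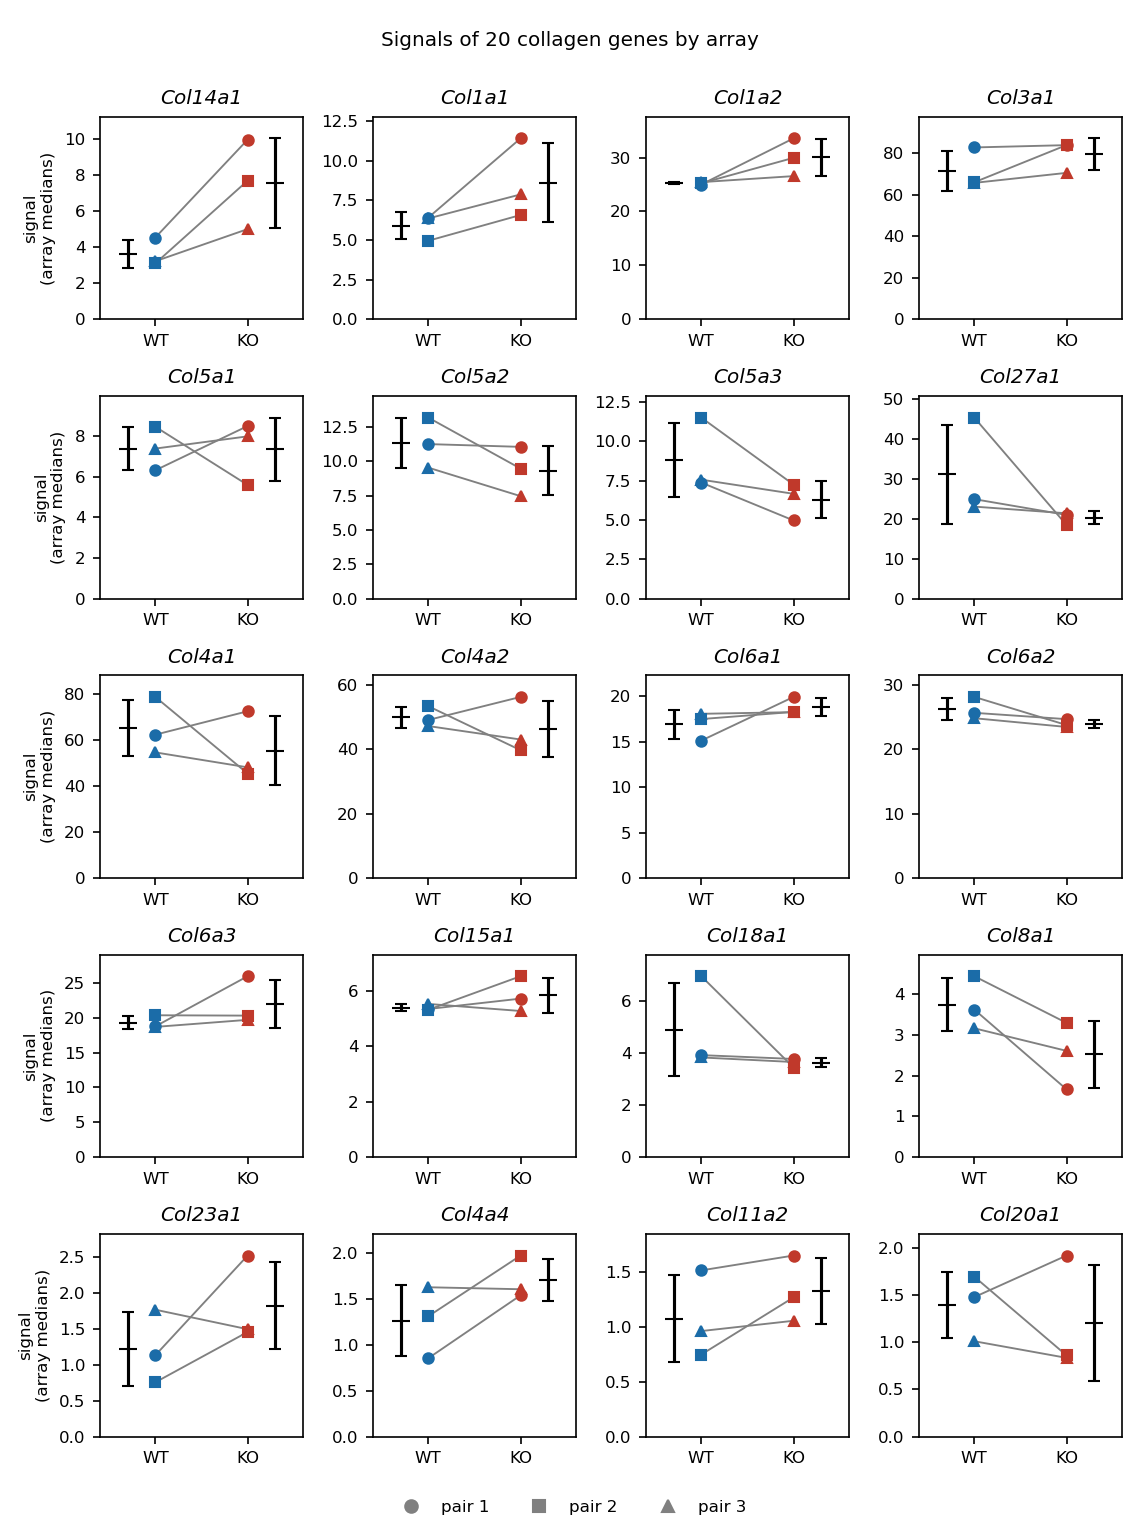
Signal (multiples of the array median, vertical axes starting at 0 and scaled per gene) of 20 collagen genes on each array. Grey lines join the littermates of a pair, and black bars are the mean ± SD of 3 arrays. Every KO point of Col14a1 (5.02 to 9.99) lies above every WT point (3.11 to 4.55), while Col27a1 and Col18a1 show WT2 far above the other arrays.

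For 14 collagen genes more than 1 probe set could be tested, 40 collagen probe sets in all of the 82 on the array. In 11 of the 14 all probe sets had the same sign of difference, and in 9 they lay within 0.3 of each other. The second Col1a1 probe set gave 0.53, close to the 0.52 of the brightest, and those of Col1a2 and Col3a1 both gave 0.23. In the second Col1a1 probe set the groups overlapped, with KO1 at 4.06 below WT3 at 4.49. Its pair differences were 0.30, 0.79 and 0.50, against 0.83, 0.41 and 0.31 in the brightest. In pair 1, however, the second probe sets of Col1a2 and Col3a1 were lower in KO, at -0.012 and -0.21. Signs were opposite for Col5a1, Col5a2 and Col6a2. The second Col5a2 probe set was higher in KO in every pair (0.25, 0.14 and 0.14), where the brightest was lower in every pair. The widest gap, 1.42, was within Col5a1, where a dim probe set with means of 0.735 in KO and 1.56 in WT gave -1.33 (adjusted p = 0.515). That dim probe set passed the filter at a mean of 1 only through the WT arrays, so it is weak evidence. KO was higher in its pair 3 (0.16). The second Col5a1 probe set gave 0.084, beside -0.019 for the brightest. The second probe set of Col8a1 gave -0.18, with KO higher in pair 1 (0.13), and that of Col18a1 gave -0.95 (adjusted p = 0.478).

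**Figure D4:**
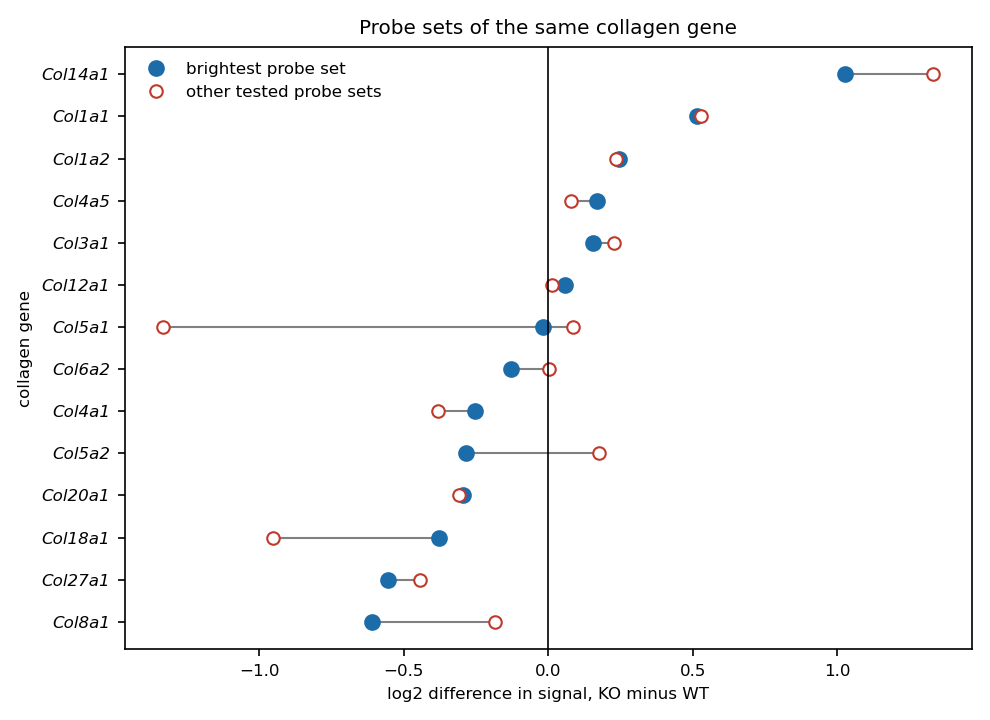
Log2 difference in signal (KO minus WT, horizontal axis) of every tested probe set of the 14 collagen genes with more than 1. Filled points are the brightest probe set of a gene and open points the others, joined by a line, and both Col14a1 points (1.03 and 1.33) lie right of all other genes. The point at 1.33 is a dim probe set with a WT mean of 0.925, which passed the filter only through KO.

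The other 17 collagen genes had means of 0.0612 to 0.845 array medians and were not tested. They were the cartilage chains Col2a1, Col9a1, Col9a2, Col9a3, Col10a1 and Col11a1, the fibrillar Col24a1, the FACITs Col16a1, Col19a1 and Col22a1, the type IV chain Col4a3, the type VI chains Col6a4 and Col6a5, the short-chain Col8a2, the transmembrane Col17a1 and Col25a1, and Col26a1. Col16a1, nearest to the limit with a mean of 0.845, was the 1 gene among them above the floor on every array. The dimmest tested gene was Col13a1, with a mean of 1.10 in KO and 1.28 in WT. Col17a1, a hemidesmosome collagen of skin, was below the floor on all 6 arrays with a highest value of 0.0973. Summed epidermis markers were 3.94 to 6.20 in KO and 4.79 to 8.86 in WT.

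Genes that fold, modify and crosslink collagen chains were also examined, and 0 of the 25 tested of 35 listed passed the adjusted test. Of these, 3 were higher in KO in every pair and 4 lower, beside 10.9% and 19.7% of all tested genes, with a median log2 difference of -0.05 beside -0.07. Colgalt2, which adds galactose to hydroxylysine in collagen, read 0.530, 0.846 and 0.917 in KO and 1.42, 1.48 and 1.52 in WT, without overlap (-0.98, adjusted p = 0.403). Colgalt2 was dim, and every KO array lay under the filter limit of 1 array median. It passed the filter only through the WT arrays, so its difference is weak evidence. P3h4, which takes part in lysine hydroxylation of collagen, read 5.32, 5.27 and 4.81 in KO and 2.53, 3.86 and 3.28 in WT, also without overlap (0.69, adjusted p = 0.485). The prolyl hydroxylase family gene P3h3 differed by 0.70 (adjusted p = 0.600), and Sec24d, a coat protein of vesicles that carry procollagen, by -0.60 (adjusted p = 0.561). Serpinh1, the collagen chaperone HSP47, was chosen for mention after its values were seen and read 33.5, 38.9 and 35.6 in KO and 50.4, 65.4 and 44.5 in WT (-0.55, adjusted p = 0.523).

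Of the collagen receptors, 0 of the 5 tested of 10 listed passed. Ddr1, a receptor tyrosine kinase that binds collagen, read 5.82, 5.87 and 7.51 in KO and 10.5, 16 and 11.8 in WT. All KO values were below all WT values, with a log2 difference of -0.98 (-1.53 to -0.44, adjusted p = 0.406). Its relative Ddr2, a receptor for fibrillar collagen, differed by 0.39 (adjusted p = 0.681), and the integrin chains Itga10 and Itgb1 by -0.25 (adjusted p = 0.818) and 0.08 (adjusted p = 0.948). Itga10 was dim, with a mean of 0.899 in KO and 1.20 in WT. It passed the filter at a mean of 1 only through the WT arrays, so its difference is weak evidence.

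Among ligands, receptors and Smad-pathway genes of TGF-beta, a known inducer of collagen genes, 0 of the 13 tested of 15 listed passed. In KO 2 were higher and 5 lower in every pair, beside 10.9% and 19.7% of all tested genes, with a median of -0.13 beside -0.07. Smad7, an inhibitor of the pathway, read 2.22, 0.926 and 1.65 in KO and 4.04, 1.92 and 2.08 in WT, with KO1 above WT2 and WT3 (-0.75, adjusted p = 0.469). The ligand Tgfb3 differed by 0.56 (adjusted p = 0.561), the Smad inhibitor Skil by -0.54 (adjusted p = 0.645) and the co-receptor Tgfbr3 by 0.28 (adjusted p = 0.722).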

How the data were processed

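RNA from brown fat of 3 KO mice and 3 WT littermates was hybridised to 1 Affymetrix GeneChip array each. The deposited values are linear signal intensities per probe set, made by the authors with GCOS (version and scaling not given in the sources used here). Each array was divided by its median over probe sets other than the 64 controls, values under 0.25 were set to 0.25, and log2 values of the 22356 probe sets with a mean above 1 were fitted in limma 3.58.1 (R 4.3.3) with the littermate pair as a block, Benjamini-Hochberg adjusted over all of them. The floor understates differences of dim genes, and adjusted p-values throughout are limma's.

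Of 45037 probe sets, 34945 named 1 symbol in the platform annotation, 932 several and 9160 were unlisted and left unnamed. The litter pairing was taken from the array numbers and the pairwise comparisons in the study's methods, since the labels do not name litters. Deviations from group means correlated at 0.446, 0.0847 and 0.160 within pairs and from -0.359 to 0.281 between them. Precision is limited by the number of arrays. Named were all tested collagen genes, with per-array signals for 12 chains chosen by class and the 5 largest differences in each direction, and up to 4 genes per pathway list, plus Serpinh1, Pi16 and Pdgfrb, picked after their values were seen. The members and lists were chosen with earlier results of these data known. Alternatives tried were scaling, floor, filter, variance model, pair block, probe set choice and leaving out each pair.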

Additional observations from a re-analysis of the deposited data

How the results depend on the processing

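Over 14 alternatives, 327 of 340 values of single collagen genes kept their direction and side of the threshold. This count overstates stability. A lower floor, no floor, other filters, another prior and no pair block leave these differences unchanged by construction. Under those settings only the adjusted p-values could move. Col14a1 alone passed the adjusted test, with a pseudocount of 1 array median (log2 0.86, 1 collagen gene among 123 probe sets) and under a prior made robust and given an intensity trend (1.03, 1 collagen gene among 311). A filter at 2 array medians, the mean over probe sets and leaving out pair 1 let 40, 2 and 255 probe sets pass, with 0 collagen genes. With signals as deposited, 2 collagen genes were higher and 3 lower in every pair, and with quantile normalization 5 and 4. In the main fit these counts were 7 and 6, so they depend on the scaling. The shares of all tested genes under these 2 settings are not given here, so the counts cannot be set against a background. Col5a1 became 0.043 with signals as deposited, or 0.052 with quantile normalization. The fit with no replicate block for the pairs also left 0 collagen genes past the test, and in this balanced design its differences equal those with the block by construction. The cause of these shifts was not tested.

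With 1 pair left out, 7 to 12 collagen genes were higher and 6 to 10 lower in both remaining pairs. Only 2 pairs need agree there, not 3. The share of all tested genes that did so is not given here, so these counts are no result about collagens. In these fits 0 collagen genes passed, and their median lay between -0.12 (pair 1 out) and 0.13 (pair 2 out). It was -0.07 with the filter at 2. Directions turned in 8 genes. Leaving out pair 1 gave the lowest value of Col12a1 (-0.23 to 0.21) and Col7a1 (-0.12 to 0.32, and -0.038 without pair 3). Leaving out pair 2 gave the highest value of Col13a1 (-0.54 to 0.35), Col20a1 (-0.63 to 0.050), Col4a1 (-0.49 to 0.018), Col4a2 (-0.28 to 0.031) and Col5a1 (-0.24 to 0.27). Leaving out pair 3 gave the lowest value of Col4a6 (-0.22 to 0.75). Biosynthesis genes had a median of -0.059 to 0.059. Signals near the floor give no usable difference.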
